A study of Mus musculus with 9 samples.

Results

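The genes described here are 10 transcripts of the blood vessel wall, *Car4*, *Ednrb*, *Apln*, *Aplnr*, *Plvap*, *Gpihbp1*, *Kdr*, *Vwf*, *Tek* and *Ackr1*, taken by symbol from a table of 34638 genes measured in whole mouse lung. Each symbol matched 1 entry, and each passed the filter on low values, which asked for a mean of at least 0.5 FPKM over the 9 mice, *Ackr1* only through the groups given IL-33. RNA-seq was done on lung tissue of wild-type C57BL/6 mice in 3 groups of 3. PBS mice received phosphate-buffered saline. IL-33 mice received 0.5 µg of recombinant mouse IL-33, an alarmin released by injured epithelium, into the trachea on each day from day 0 to day 3. IL-33+LM8 mice received the same IL-33 and, before it, 10 mg/kg of LM8 into the peritoneum. LM8 is an inhibitor of MyD88, the adaptor through which the IL-33 receptor signals. For PBS and IL-33 mice the study's methods give females of 6 to 8 weeks and collection on day 4. The age, sex and day of collection of IL-33+LM8 mice are not given in the sources used here. No group received LM8 without IL-33 or the solvent of LM8 with IL-33, so an effect of LM8 on IL-33 signalling cannot be told apart from an effect of LM8 or its solvent alone. The reads were counted by gene, between 53877663 and 90607218 per mouse, and scaled by gene length and library size to FPKM, the unit of all levels below. The mice with the most reads, PBS replicate 3, IL-33 replicate 1 and IL-33+LM8 replicate 3, deviated together from their group means over all genes (r = 0.73 to 0.76 between pairs), so counts are also given without them.

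The wall of a lung capillary is made of aerocytes and general capillary cells in the mouse. Aerocytes are large, thin cells over which gas is exchanged, and they carry *Car4*, *Ednrb* and *Apln*. General capillary cells act as the stem cells of the bed and control vessel tone, and they carry *Aplnr*, *Gpihbp1* and *Plvap*. *Kdr* and *Tek* encode the receptors through which vascular endothelial growth factor (VEGF) and the angiopoietins keep these cells alive and quiet. *Vwf* and *Ackr1* mark larger vessels, *Ackr1* above all the venules where leukocytes leave the blood.

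With IL-33, 8 of the 10 genes fell, among them every gene of both capillary cell types and both growth factor receptors, to between 41.7% and 67.7% of the PBS mean. The venular gene *Ackr1* rose, from a low level, and *Vwf* did not pass the test. In IL-33+LM8 mice 7 of the 10 genes were higher than in IL-33 mice, among them *Vwf*, which was also higher than in PBS mice. The means of the capillary genes lay between those of the other groups. *Gpihbp1* and *Plvap* overlapped PBS mice, though, and *Apln* overlapped IL-33 mice. *Gpihbp1* reached 90.6% of the PBS mean, and *Apln* remained at 46.7%. A gene was taken to have risen or fallen at an adjusted p under 0.05 in the quasi-likelihood test of edgeR, with p-values adjusted by the Benjamini-Hochberg method over all genes tested. That threshold was passed in the IL-33 versus PBS comparison by 27.2% of all 16831 genes as lower and 27.4% as higher, which is the background for the counts of 8 and 1. In IL-33+LM8 versus IL-33 it was passed by 12.6% of all genes as higher, the background for the count of 7. Levels are shares of the RNA of the whole tissue. Fewer cells of a type, less RNA per cell and more RNA from other cells thus cannot be told apart.

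**Figure D1:**
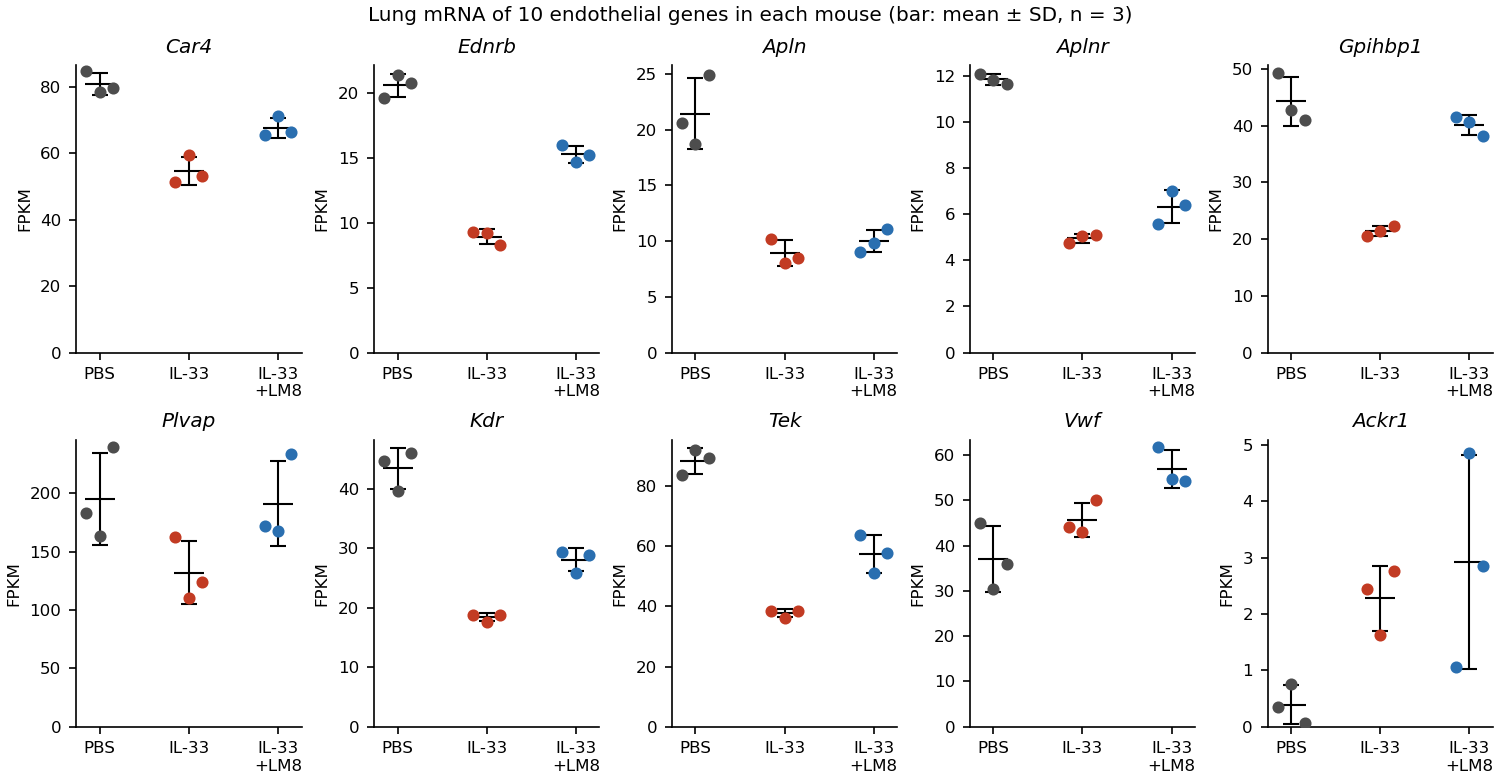
Level of each of the 10 genes in FPKM on the vertical axis, by group on the horizontal axis, with 1 point per mouse and bars for the mean ± SD of 3 mice. In 8 of the panels all IL-33 points lie below all PBS points, and in the *Ackr1* panel all lie above. Over all genes tested, 31.7% lay wholly below and 31.7% wholly above.

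The start of a gene is where endothelial transcription factors of the ETS family often bind, and their sites share a GGAA core. The sequences upstream of *Kdr*, *Tek*, *Car4* and *Ackr1* are shown because *Kdr* and *Tek* fell alike, *Car4* fell least of the aerocyte genes and *Ackr1* rose. They are the 250 bases before the start of the gene, read 5′ to 3′ on the strand of the gene, from RefSeq on GRCm38.p6. Capitals mark the letters CAGGAA or CCGGAA on either strand, so that TTCCTG and TTCCGG are the same motifs read on the other strand.
Kdr (chr5:75978456-75978705, minus strand): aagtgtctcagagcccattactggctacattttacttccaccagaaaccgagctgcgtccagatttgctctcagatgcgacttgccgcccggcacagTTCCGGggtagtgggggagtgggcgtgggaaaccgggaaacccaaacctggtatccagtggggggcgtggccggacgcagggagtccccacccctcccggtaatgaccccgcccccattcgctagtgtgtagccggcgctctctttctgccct
Tek (chr4:94739039-94739288, plus strand): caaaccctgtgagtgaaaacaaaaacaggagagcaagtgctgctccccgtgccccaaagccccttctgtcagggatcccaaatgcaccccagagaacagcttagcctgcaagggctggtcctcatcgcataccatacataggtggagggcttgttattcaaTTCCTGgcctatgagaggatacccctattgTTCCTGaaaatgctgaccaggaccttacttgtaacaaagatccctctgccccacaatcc
Car4 (chr11:84957504-84957753, plus strand): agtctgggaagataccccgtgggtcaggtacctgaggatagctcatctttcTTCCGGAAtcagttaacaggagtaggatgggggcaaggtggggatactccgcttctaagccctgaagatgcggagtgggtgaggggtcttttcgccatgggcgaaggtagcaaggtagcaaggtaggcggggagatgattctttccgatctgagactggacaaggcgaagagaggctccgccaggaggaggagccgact
Ackr1 (chr1:173333504-173333753, minus strand): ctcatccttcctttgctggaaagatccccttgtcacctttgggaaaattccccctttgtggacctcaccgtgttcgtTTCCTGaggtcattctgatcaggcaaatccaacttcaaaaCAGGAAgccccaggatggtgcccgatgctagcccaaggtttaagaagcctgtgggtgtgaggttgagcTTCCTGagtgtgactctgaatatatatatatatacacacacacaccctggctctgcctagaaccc

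Of the 10 genes, 6 had an entry in that RefSeq table, the 4 shown together with *Apln* and *Ednrb*, and *Aplnr*, *Plvap*, *Gpihbp1* and *Vwf* had none. Matches were counted in windows of 300 bases, the 250 shown and the 50 that follow. *Kdr* held CCGGAA at position -153 from the start, and *Car4* held it on both strands in overlapping letters at -199 and -197. *Tek* held CAGGAA at -89 and -59, *Ackr1* held it at -173, -133 and -65, and *Apln* held it at -112. *Ednrb* held neither. CAGGAA occurred in 30.6% and CCGGAA in 14.9% of all 32851 windows, so single matches are common. Other motifs searched on both strands were AGATAA of the GATA factors, AACAAT of the SOX factors and GTAAACA of the FOX factors, held by 11.2%, 10.7% and 3.65% of all windows. Of these, *Tek* held AGATAA at position 37 after the start and AACAAT at -63, where it overlaps the CAGGAA match at -59, and *Ackr1* held AGATAA at position 26 after the start. Genes that fell and the gene that rose thus shared the CAGGAA letters. These are matches of letters, and no binding was measured.

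Among the aerocyte genes, *Ednrb* and *Apln* fell to 43.4% and 41.7% of the PBS mean with IL-33, and *Car4* fell less. *Car4* (ENSMUSG00000000805, chromosome 11 from 84848612 to 84856870 on the plus strand in the coordinates of the deposited table) encodes a carbonic anhydrase anchored at the cell surface, where it helps to move carbon dioxide from blood to air. Its level was 84.7, 78.3 and 79.5 FPKM in the PBS mice, 51.3, 59.3 and 53.0 in the IL-33 mice and 65.4, 71.1 and 66.3 in the IL-33+LM8 mice. All IL-33 mice were lowest, all PBS mice were highest, and no groups overlapped. The fall with IL-33 was -0.57 on the log2 scale (SE 0.071, edgeR adjusted p = 0.00043), and *Car4* was higher in IL-33+LM8 than in IL-33 mice by 0.31 (SE 0.071, edgeR adjusted p = 0.017). It was still lower in IL-33+LM8 than in PBS mice, at -0.24 (SE 0.066, edgeR adjusted p = 0.030). The difference between IL-33+LM8 and IL-33 mice no longer passed without IL-33 replicate 1 (adjusted p = 0.056 from edgeR) or IL-33 replicate 3 (0.062). The difference from PBS mice no longer passed in 5 of the 6 fits that left out 1 mouse.

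*Ednrb* (ENSMUSG00000022122, chromosome 14 from 104052061 to 104081838, minus strand) encodes the endothelin B receptor, which clears endothelin from the blood and triggers nitric oxide release. It measured 19.6, 21.4 and 20.8 FPKM in PBS mice, 9.31, 9.20 and 8.30 in IL-33 mice and 16.0, 14.7 and 15.2 in IL-33+LM8 mice. The 3 groups were separate and tight, with IL-33 mice lowest and IL-33+LM8 mice in the middle. *Ednrb* fell with IL-33 (log2 fold change -1.21, SE 0.061, edgeR adjusted p = 6.2e-06), was higher with LM8 added (0.77, SE 0.067, adjusted p = 0.00029) and was lower in IL-33+LM8 than in PBS mice (-0.42, SE 0.057, adjusted p = 0.0021).

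*Apln* (ENSMUSG00000037010, chromosome X from 47114023 to 47123730, minus strand) encodes apelin, the peptide ligand of the receptor made from *Aplnr*. Its level was 20.6, 18.7 and 24.9 FPKM in PBS mice, 10.2, 8.04 and 8.51 in IL-33 mice and 9.04, 9.87 and 11.1 in IL-33+LM8 mice. The IL-33 and IL-33+LM8 mice overlapped, and both groups lay below all PBS mice. *Apln* fell with IL-33 (log2 fold change -1.27, SE 0.13, edgeR adjusted p = 0.00015) and was lower in IL-33+LM8 than in PBS mice (-1.08, SE 0.12, adjusted p = 0.00094). Between IL-33+LM8 and IL-33 mice the log2 difference was 0.17 (SE 0.11, adjusted p = 0.33), which did not pass.

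With LM8 added, the general capillary genes *Plvap* and *Gpihbp1* were at 97.9% and 90.6% of the PBS mean, and *Aplnr* was at 53.5%. *Aplnr* (ENSMUSG00000044338, chromosome 2 from 84966569 to 84970267, plus strand) encodes the apelin receptor. It measured 12.1, 11.8 and 11.6 FPKM in PBS mice, 4.74, 5.06 and 5.07 in IL-33 mice and 5.58, 7.01 and 6.39 in IL-33+LM8 mice. All IL-33+LM8 mice were above all IL-33 mice, but the lowest of them by little, and both groups were far below the PBS mice. *Aplnr* fell with IL-33 (log2 fold change -1.26, SE 0.066, edgeR adjusted p = 7.2e-06) and was lower in IL-33+LM8 than in PBS mice (-0.89, SE 0.099, adjusted p = 0.00089). The higher level with LM8 added (0.35, SE 0.10, adjusted p = 0.044) passed narrowly and was lost in 5 of the 6 fits that left out 1 mouse, all but the one without IL-33+LM8 replicate 1.

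*Gpihbp1* (ENSMUSG00000022579, chromosome 15 from 75468477 to 75470062, plus strand) encodes the protein that carries lipoprotein lipase across capillary endothelium and holds it on the luminal face. Its level was 49.2, 42.7 and 41.0 FPKM in PBS mice, 20.5, 21.5 and 22.3 in IL-33 mice and 41.5, 40.6 and 38.2 in IL-33+LM8 mice. IL-33+LM8 mice overlapped PBS mice, and all IL-33 mice lay far below both. *Gpihbp1* fell with IL-33 (log2 fold change -1.05, SE 0.084, edgeR adjusted p = 4.8e-05) and was higher with LM8 added (0.91, SE 0.062, adjusted p = 0.00014). The log2 difference of IL-33+LM8 from PBS mice was -0.13 (SE 0.086, adjusted p = 0.30).

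*Plvap* (ENSMUSG00000034845, chromosome 8 from 71950409 to 71964396, minus strand) encodes the protein of the diaphragms that span endothelial caveolae and fenestrae. It had the highest level of the 10 genes in each group and a wide spread, at 183, 164 and 239 FPKM in PBS mice, 162, 110 and 124 in IL-33 mice and 172, 168 and 233 in IL-33+LM8 mice. In each group the highest value belonged to the mouse with the most reads, PBS replicate 3, IL-33 replicate 1 and IL-33+LM8 replicate 3. The part of that in the result was not tested beyond the fits without those mice. *Plvap* fell with IL-33 (log2 fold change -0.57, SE 0.18, edgeR adjusted p = 0.029), a call that was lost in 4 of the 6 fits that left out 1 mouse (without PBS replicate 1 or 3, or IL-33 replicate 2 or 3) and kept without the deepest library of both groups. All IL-33+LM8 mice were above all IL-33 mice, yet the log2 difference of 0.53 (SE 0.17, adjusted p = 0.057) did not pass. It passed with DESeq2 (adjusted p = 0.0019), without IL-33 replicate 1 (edgeR adjusted p = 0.024) and without the deepest libraries (edgeR adjusted p = 0.021). Between IL-33+LM8 and PBS mice the log2 difference was -0.02 (SE 0.17, adjusted p = 0.95).

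The receptors *Kdr* and *Tek* changed in near parallel. *Kdr* (ENSMUSG00000062960, chromosome 5 from 76093487 to 76139118, minus strand) encodes VEGF receptor 2, the main signalling receptor for VEGF-A. It measured 44.7, 39.6 and 46.1 FPKM in PBS mice, 18.9, 17.7 and 18.8 in IL-33 mice and 29.5, 25.9 and 29.0 in IL-33+LM8 mice. The groups were separate, in the order PBS, IL-33+LM8, IL-33. *Kdr* fell with IL-33 (log2 fold change -1.24, SE 0.069, edgeR adjusted p = 9.7e-06), was higher with LM8 added (0.61, SE 0.062, adjusted p = 0.00052) and was lower in IL-33+LM8 than in PBS mice (-0.61, SE 0.083, adjusted p = 0.0020).

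*Tek* (ENSMUSG00000006386, chromosome 4 from 94627526 to 94763213, plus strand) encodes Tie2, the receptor of the angiopoietins. Its level was 83.5, 92.0 and 89.3 FPKM in PBS mice, 38.6, 36.2 and 38.6 in IL-33 mice and 63.7, 51.0 and 57.8 in IL-33+LM8 mice. The order and the separation of the groups were those of *Kdr*. *Tek* fell with IL-33 (log2 fold change -1.23, SE 0.054, edgeR adjusted p = 3.6e-06), was higher with LM8 added (0.60, SE 0.080, adjusted p = 0.0016) and was lower in IL-33+LM8 than in PBS mice (-0.60, SE 0.087, adjusted p = 0.0026).

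Neither *Vwf* nor *Ackr1* fell with IL-33. *Vwf* (ENSMUSG00000001930, chromosome 6 from 125523737 to 125663642, plus strand) encodes von Willebrand factor, which tethers platelets and is stored in endothelial cells together with P-selectin. It measured 44.9, 30.5 and 35.9 FPKM in PBS mice, 44.0, 43.1 and 49.99 in IL-33 mice and 61.8, 54.6 and 54.3 in IL-33+LM8 mice. PBS replicate 1 reached into the range of the IL-33 mice, and all IL-33+LM8 mice were above all others. The log2 difference of IL-33 from PBS mice was 0.30 (SE 0.14, edgeR adjusted p = 0.12), and it passed without PBS replicate 1 (0.47, adjusted p = 0.010) and with DESeq2 (adjusted p = 0.032). *Vwf* was higher in IL-33+LM8 than in IL-33 mice (0.32, SE 0.086, adjusted p = 0.032) and than in PBS mice (0.63, SE 0.15, adjusted p = 0.018). The first of these was lost in 4 of the 6 fits without 1 mouse (IL-33 replicate 1 or 2, IL-33+LM8 replicate 1 or 3), and the second without PBS replicate 3 (adjusted p = 0.056). *Vwf* is also made by megakaryocytes. The summed level of 6 platelet and megakaryocyte genes was 13.3 to 16.3 FPKM in PBS, 14.12 to 14.97 in IL-33 and 17.78 to 21.97 in IL-33+LM8 mice. Of the 4 of these genes that were tested, 2 were higher and 1 lower in IL-33+LM8 than in IL-33 mice, and their part in the *Vwf* values was not tested.

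*Ackr1* (ENSMUSG00000037872, chromosome 1 from 173159453 to 173161317, minus strand) encodes the atypical chemokine receptor of venules, which binds chemokines without signalling and carries them across the vessel wall. It was scarce, with 33, 69 and 7 reads in PBS mice, 237, 145 and 219 in IL-33 mice and 95, 443 and 380 in IL-33+LM8 mice. These correspond to 0.352, 0.752 and 0.0649 FPKM, then 2.45, 1.63 and 2.76, and then 1.07, 4.86 and 2.86. Its mean of 0.390 FPKM in PBS mice is under the filter, so it was tested only because of its level in the groups given IL-33, and it had to differ to be counted. All mice given IL-33, with or without LM8, were above all PBS mice, and the IL-33+LM8 mice spread over the whole range of the IL-33 mice and beyond. *Ackr1* rose with IL-33 (log2 fold change 2.54, SE 0.73, edgeR adjusted p = 0.021), a call kept with no filter on low values (adjusted p = 0.043) and lost without PBS replicate 1 (adjusted p = 0.066) or IL-33 replicate 3 (0.060). It was higher in IL-33+LM8 than in PBS mice (2.92, SE 0.85, adjusted p = 0.039), a call lost without PBS replicate 1 or IL-33+LM8 replicate 2 or 3, and with no filter on low values (adjusted p = 0.062). Between IL-33+LM8 and IL-33 mice the log2 difference was 0.36 (SE 0.50, adjusted p = 0.65), and it was -0.21 without IL-33+LM8 replicate 2. Red cell precursors also make *Ackr1*, and red cell genes are given with the other cell types.

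**Figure D2:**
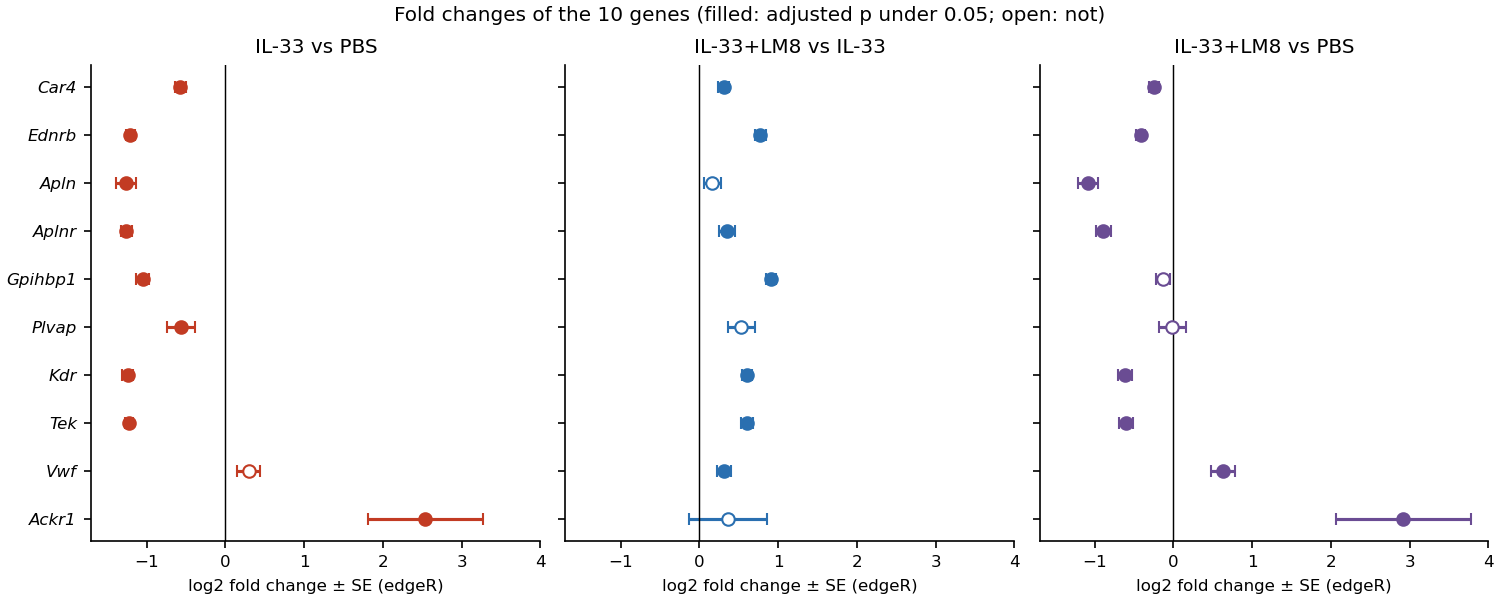
Log2 fold change of each gene with its SE from edgeR on the horizontal axis, in 3 panels for the 3 comparisons, with filled points for genes at an adjusted p under 0.05. The capillary and receptor genes lie to the left in the IL-33 versus PBS panel and to the right in the IL-33+LM8 versus IL-33 panel, where *Apln*, *Plvap* and *Ackr1* are open.

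Counted over the 10 genes, 9 passed in IL-33 versus PBS, where 54.6% of all genes did, 8 lower and 1 higher. The 1 higher gene, *Ackr1*, passed the filter only through the groups given IL-33. Its rises against PBS in this and the following counts were thus favoured by the filter. With a minimum of 2-fold in addition, 6 were lower (*Ednrb*, *Apln*, *Aplnr*, *Gpihbp1*, *Kdr* and *Tek*) and 1 higher (*Ackr1*), where 6.24% and 10.8% of all genes met that rule. The groups did not overlap for the same 9 genes, 8 below and 1 above, and 31.7% of all genes did not overlap in each direction. In IL-33+LM8 versus IL-33, 7 passed, where 26.5% of all genes did, 7 as higher and 0 as lower, against 12.6% and 13.9% of all genes. No log2 fold change of the 10 was below 0 in that comparison, where the lowest was 0.17. None of the 10 reached 2-fold there with an adjusted p under 0.05 in edgeR, a rule met by 1.46% of all genes as higher and 3.93% as lower. All IL-33+LM8 mice were above all IL-33 mice for 8 of the 10 genes, the 7 and *Plvap*, and 21.2% of all genes did not overlap in that direction and 22.0% in the other. In IL-33+LM8 versus PBS 8 passed, where 29.7% of all genes did, 6 as lower and 2 as higher, against 13.4% and 16.3% of all genes. *Apln* was the lower and *Ackr1* the higher gene at 2-fold or more, where 1.46% and 5.87% of all genes met that rule. The same 6 genes lay wholly below and the same 2 wholly above the PBS mice, and 23.9% and 23.4% of all genes did so. The median log2 fold change of the 10 genes was -1.13, 0.45 and -0.33 in the 3 comparisons in this order, and that of all genes tested was -0.01, -0.01 and 0.00. Without the deepest library of each group 9, 5 and 5 genes passed, where 7545 of 16831, 1966 of 16830 and 2622 of 16825 genes did. In IL-33+LM8 versus IL-33 this lost *Car4*, *Aplnr* and *Vwf* and gained *Plvap*, and in IL-33+LM8 versus PBS it lost *Car4*, *Vwf* and *Ackr1*. The 3 comparisons share mice pairwise, so a low IL-33 group enters the first comparison and the second alike.

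The order of the levels differed between the groups, mainly in the places of *Vwf*, *Tek* and *Car4*. FPKM is scaled by gene length, so levels may be compared between genes. In PBS mice *Plvap* was highest at 195 ± 39.3 FPKM (SD, n = 3), followed by *Tek* at 88.3 ± 4.32 and *Car4* at 80.9 ± 3.39, whose ranges overlapped. *Gpihbp1* (44.3 ± 4.33), *Kdr* (43.5 ± 3.41) and *Vwf* (37.1 ± 7.27) formed an overlapping middle group, as did *Apln* (21.4 ± 3.18) and *Ednrb* (20.6 ± 0.898) below them. *Aplnr* (11.8 ± 0.233) and *Ackr1* (0.390 ± 0.345) came last. In IL-33 mice *Vwf* came after *Plvap* and *Car4* at 45.7 ± 3.75 FPKM (SD, n = 3), above all values of *Tek* (37.8 ± 1.37), *Gpihbp1* (21.4 ± 0.905) and *Kdr* (18.4 ± 0.649). *Car4* was above *Tek* without overlap at 54.5 ± 4.24 FPKM there and at 67.6 ± 3.07 with LM8 added (SD, n = 3). In IL-33+LM8 mice *Vwf* (56.9 ± 4.26) and *Tek* (57.5 ± 6.31) overlapped.

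Ratios of FPKM within a mouse show the same shift without reference to library scaling. The ratio of *Vwf* to *Kdr* was 0.770 to 1.00 in PBS mice, 2.33 to 2.66 in IL-33 mice and 1.87 to 2.11 in IL-33+LM8 mice. All mice given IL-33 were above all PBS mice in this ratio, and the IL-33+LM8 mice were below the IL-33 mice. The ratio of *Gpihbp1* to *Aplnr*, both genes of general capillary cells, was 3.53 to 4.07, 4.25 to 4.39 and 5.80 to 7.43 in the 3 groups. That of *Gpihbp1* to *Apln* was 1.64 to 2.39, 2.00 to 2.67 and 3.45 to 4.59, and that of *Ednrb* to *Apln*, both aerocyte genes, was 0.834 to 1.14, 0.913 to 1.14 and 1.37 to 1.77. PBS and IL-33 mice overlapped in both ratios to *Apln*, and IL-33+LM8 mice lay above both groups. The other aerocyte and general capillary genes differed widely in their percent of the PBS mean in IL-33+LM8 mice. They ran from 58.0% for *Chst1* and 58.2% for *Glp1r* to 98.0% for *Kit* and 138.6% for *Lpl*. *Aplnr* was at 53.5% and *Apln* at 46.7%. These ratios were chosen after the values were seen and are given without a test.

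To compare the 10 genes with the centre of other endothelial genes, the libraries were scaled to 20 pan-endothelial genes that hold none of the 10, such as *Pecam1*, *Cdh5* and *Epas1*. Of these 20, 15 fell with IL-33 and 0 rose, with a median log2 fold change of -0.79, and 16 were higher and 0 lower in IL-33+LM8 than in IL-33 mice (median 0.57). Their geometric mean was 55.5 to 61.1 FPKM in PBS mice, 34.6 to 36.4 in IL-33 mice and 49.1 to 53.4 in IL-33+LM8 mice. The largest falls with IL-33 among them were *Clec14a* (log2 fold change -1.696), *Eng* (-1.30), *Robo4* (-1.19) and *Cdh5* (-1.08). The 5 that did not pass, named after their values were seen, were *Emcn* (-0.01, SE 0.049), *Nos3* (-0.14, SE 0.095), *Mmrn2* (-0.08, SE 0.10), *Cldn5* (-0.23, SE 0.15) and *Sox18* (0.17, SE 0.50). Vessel genes thus fell unequally, though for *Cldn5* and *Sox18* a fall could not be judged at these SEs. This scaling moved the median log2 fold change of all genes to 0.76, -0.58 and 0.19 in the 3 comparisons. The values below are thus relative to endothelial genes and not to the whole lung.

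Relative to the pan-endothelial genes, IL-33 mice were still lower than PBS mice for 6 genes, *Apln* (log2 fold change -0.50, edgeR adjusted p = 0.0063), *Aplnr* (-0.49, 0.00051), *Kdr* (-0.47, 0.00019), *Tek* (-0.46, 0.00020), *Ednrb* (-0.44, 0.0014) and *Gpihbp1* (-0.28, 0.014). On this scale 4.35% of all genes passed as lower and 72.2% as higher. *Car4* and *Plvap* turned to 0.20 each (adjusted p = 0.052 and 0.30), which did not pass. *Vwf* was higher by 1.07 (adjusted p = 0.00016). *Ackr1*, tested only because of its level in the groups given IL-33, was higher by 3.29 (adjusted p = 0.0042). Thus 6 genes fell more than the centre of the pan-endothelial list, and for *Car4* and *Plvap* no such difference was detectable. These p-values measure the spread between mice and not the spread among endothelial genes. Before this scaling, the 20 pan-endothelial genes ran from -1.696 (*Clec14a*) to 0.17 (*Sox18*) in log2 fold change. The 6 genes, at -1.27 (*Apln*) to -1.05 (*Gpihbp1*), lay within that range, so they were not set apart from endothelial genes at large.

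The same scaling separated the genes with LM8 added, where 1.61% of all genes passed as higher and 70.6% as lower. *Gpihbp1* was higher in IL-33+LM8 than in IL-33 mice (log2 fold change 0.33, edgeR adjusted p = 0.0032), and *Apln* (-0.41, 0.018), *Car4* (-0.26, 0.033) and *Vwf* (-0.26, 0.016) were lower. *Kdr* (0.03, adjusted p = 0.61) and *Tek* (0.03, adjusted p = 0.71) moved with the pan-endothelial genes within error, and *Ednrb* (0.20, adjusted p = 0.056) did not pass. Against PBS mice, IL-33+LM8 mice were lower on this scale for *Apln* (-0.90), *Aplnr* (-0.70), *Kdr* (-0.43), *Tek* (-0.43) and *Ednrb* (-0.23), and higher for *Vwf* (0.82) and *Ackr1* (3.11), with 5.84% of all genes lower and 26.9% higher.

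**Figure D3:**
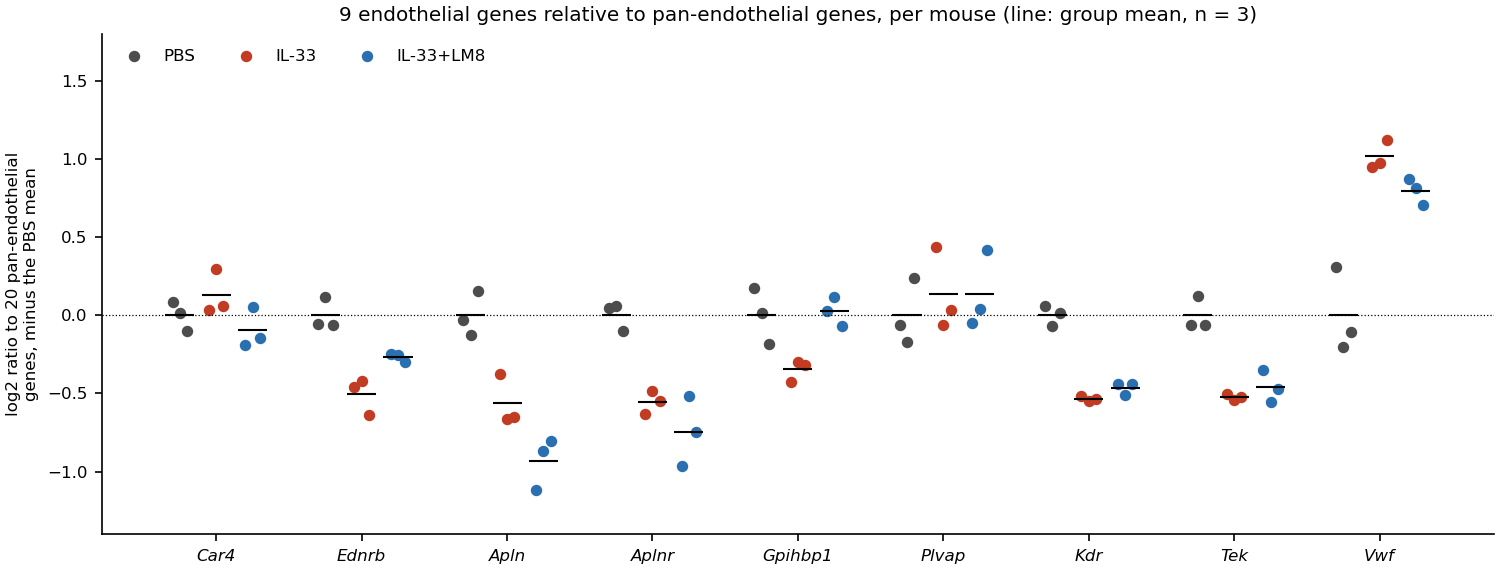
Log2 ratio of the FPKM of 9 genes to the mean of 20 pan-endothelial genes in each mouse, minus the PBS mean, with 1 point per mouse and a line at the group mean of 3. *Vwf* lies above 0 and *Ednrb*, *Apln*, *Aplnr*, *Kdr* and *Tek* below it in all mice given IL-33, and *Gpihbp1* returns to 0 with LM8. *Ackr1* is left out because of its low counts.

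The ligands and partners of the receptors were followed in pathway lists that leave the 10 genes out. Of 9 other VEGF pathway genes, 6 fell and 2 rose with IL-33. *Vegfa*, the ligand of *Kdr*, fell from 234 ± 50.2 to 98.4 ± 16.7 FPKM (SD, n = 3, log2 fold change -1.25, SE 0.17, edgeR adjusted p = 0.00069) and was higher with LM8 added (162 ± 30.4 FPKM, 0.72, SE 0.16, adjusted p = 0.013). *Flt1*, the decoy receptor for VEGF-A, fell by 0.76 on the log2 scale and *Nrp1*, the coreceptor of *Kdr*, fell by 0.83. Among the lymphatic growth factors and their receptor, *Vegfc* (-0.49), *Vegfd* (-0.79) and *Flt4* (-0.62) fell as well. The rises were in *Pgf* (0.92), placental growth factor, and *Nrp2* (0.89), the coreceptor found on veins and lymphatics, and *Vegfb* was at 0.01. With LM8 added, *Flt1* (0.59), *Nrp1* (0.40) and *Flt4* (0.37) were higher and *Nrp2* lower (-0.64) than in IL-33 mice.

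All 4 partners of *Tek* fell with IL-33. They were its agonist *Angpt1*, made by cells around the vessel (log2 fold change -1.495, SE 0.056, edgeR adjusted p = 2.0e-06), its context-dependent antagonist *Angpt2* (-0.55, adjusted p = 0.011), its partner receptor *Tie1* (-0.66) and the phosphatase *Ptprb* (-1.42), which restrains it. *Angpt1* went from 19.4 ± 0.901 to 6.89 ± 0.322 FPKM (SD, n = 3) and was 12.3 ± 0.808 FPKM with LM8 added. *Angpt1* (0.84), *Tie1* (0.45) and *Ptprb* (0.77) were higher with LM8 added, and *Angpt2* (0.47, adjusted p = 0.059) did not pass.

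The endothelin ligands of *Ednrb* fell with their receptor. *Edn1*, a strong constrictor made by endothelium, fell from 26.6 ± 1.07 to 9.93 ± 0.994 FPKM (SD, n = 3, log2 fold change -1.42, SE 0.088, edgeR adjusted p = 1.5e-05), and *Edn3* fell by 1.38. The converting enzyme *Ece1* fell by 0.71. *Ednra*, the endothelin A receptor of smooth muscle, was at -0.21 (adjusted p = 0.065) and did not pass. With LM8 added, *Edn1* (0.70), *Edn3* (0.81) and *Ece1* (0.65) were higher, and *Ednra* was at -0.12 (adjusted p = 0.29). *Edn2* was too scarce to test, and so was *Apela*, the second ligand of the apelin receptor.

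The lipolysis genes around *Gpihbp1* changed less. *Lpl*, the lipase that it carries, was at 12.7 ± 0.460 FPKM in PBS and 13.6 ± 1.15 in IL-33 mice (SD, n = 3, log2 difference 0.10, edgeR adjusted p = 0.28) and was higher in IL-33+LM8 mice, at 17.6 ± 1.01 FPKM (0.37 against IL-33 mice, adjusted p = 0.011). *Angptl4*, an inhibitor of the lipase, fell with IL-33 (-0.97) and was higher with LM8 added (0.61). The fatty acid transporter *Cd36* fell by 0.25, and the lipase maturation factor *Lmf1* was at 0.24 (adjusted p = 0.060).

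**Figure D4:**
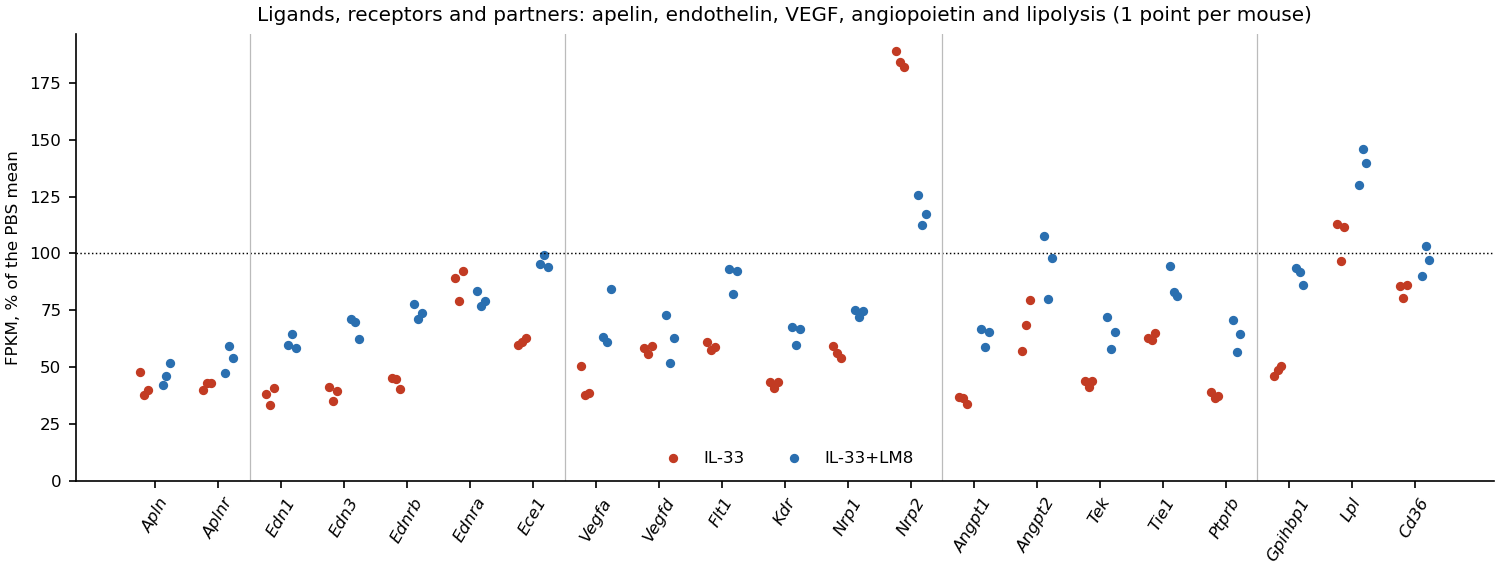
FPKM of ligands, receptors and partners as a percent of the PBS mean, with 1 point per mouse for IL-33 and IL-33+LM8 mice and vertical lines between the apelin, endothelin, VEGF, angiopoietin and lipolysis genes. *Edn1*, *Edn3*, *Vegfa* and *Angpt1* lie low beside *Ednrb*, *Kdr* and *Tek* in IL-33 mice, while *Nrp2* lies at 185% of PBS and *Lpl* at 107%.

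Other markers of the same vessel segments were counted without the 10 genes. Of 9 aerocyte genes 7 fell and 0 rose with IL-33, among them *Cyp4b1* (-1.81), *Fibin* (-1.43), *Chst1* (-1.11) and *Emp2* (-1.001), and 6 were higher and 0 lower with LM8 added. *Cyp4b1* was the most abundant of them, at 288 ± 12.2 FPKM in PBS, 82.2 ± 3.67 in IL-33 and 225 ± 6.60 in IL-33+LM8 mice (SD, n = 3). Of 5 general capillary genes 4 fell (*Ptprb*, *Glp1r*, *Cd93* and *Kit*) and all 5 were higher with LM8 added. Of 8 arterial genes 6 fell, led by *Bmx* (-1.74), *Hey1* (-1.18), *Efnb2* (-1.13) and *Dll4* (-1.11), and 6 were higher with LM8 added.

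Venous genes other than *Vwf* and *Ackr1* were divided. Of 8, 4 rose and 3 fell with IL-33, and 4 were higher and 1 lower with LM8 added. The adhesion molecules by which leukocytes roll on venules rose in both groups given IL-33. *Selp*, P-selectin, was at 0.935 ± 0.0249 FPKM in PBS, 4.99 ± 0.248 in IL-33 and 8.44 ± 2.07 in IL-33+LM8 mice (SD, n = 3). Its log2 fold change was 2.41 with IL-33, and it was higher again with LM8 added (0.76, SE 0.17, edgeR adjusted p = 0.015). *Sele*, E-selectin, behaved alike (1.41 and then 0.77, adjusted p = 0.023), and *Lrg1* rose with IL-33 (2.57) and was lower with LM8 added (-0.38). *Selp* is also made by megakaryocytes. *Ephb4* (-0.68) and *Slc6a2* (-0.51), which encodes a noradrenaline transporter, fell.

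Of 6 genes of endothelial tip cells, the leading cells of vessel sprouts, 4 fell and 2 rose with IL-33. *Esm1* (-2.76) and *Nid2* (-0.95) were among those that fell and *Cxcr4* (0.75) among those that rose. *Cxcr4* was lower with LM8 added (-0.65). *Esm1* went from 6.32 ± 0.0382 to 0.933 ± 0.196 FPKM (SD, n = 3) and was 2.53 ± 0.392 FPKM in IL-33+LM8 mice (1.44 against IL-33 mice, SE 0.22, edgeR adjusted p = 0.0033). Of 6 lymphatic genes 4 fell and 1 rose with IL-33, and 2 were higher and 1 lower with LM8 added. *Lyve1*, the most abundant, went from 123 ± 12.8 to 79.0 ± 2.18 FPKM and was 149 ± 8.60 FPKM with LM8 added (SD, n = 3). *Prox1*, at 0.641 ± 0.0472 FPKM in PBS mice, went the other way in both comparisons. Its log2 fold change was 0.36 with IL-33 (edgeR adjusted p = 0.0497) and -0.88 with LM8 added (adjusted p = 0.0042).

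Against PBS mice, part of the vessel genes remained lower in IL-33+LM8 mice. Of the aerocyte genes 5 of 9 were lower and 0 higher (median log2 fold change -0.34), of the arterial genes 5 of 8 were lower and 0 higher (-0.30), and of the general capillary genes 3 of 5 were lower (*Ptprb*, *Glp1r* and *Cd93*) and *Lpl* was higher. *Chst1* (-0.77) and *Glp1r* (-0.77) were farthest below PBS in the capillary lists. Of the pan-endothelial genes 5 of 20 were lower and 0 higher (-0.18). Of the venous genes 4 of 8 were higher, *Selp* by 3.18, *Sele* and *Lrg1* by 2.20 each and *Vcam1* by 0.72 on the log2 scale, and 2 were lower, *Cpe* (-1.11) and *Nr2f2* (-0.23). The background of 13.4% lower and 16.3% higher applies to these counts too.

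Genes of other cells moved with the same groups. The summed level of 6 leukocyte genes was 114 to 129 FPKM in PBS, 476 to 503 in IL-33 and 316 to 326 in IL-33+LM8 mice, and all 6 rose with IL-33 and were lower with LM8 added. In the vessel lists *Cxcr4*, *Nrp2*, *Lrg1* and *Prox1* did likewise, and the part of leukocytes in their values was not tested. The defining leukocyte gene *Ptprc* was at 7.75 ± 0.464, 20.6 ± 0.760 and 15.6 ± 1.86 FPKM in the 3 groups (SD, n = 3). The summed level of 5 red cell genes was 7847 to 9293, 2539 to 3188 and 10885 to 12337 FPKM. All 5 fell with IL-33 and were higher with LM8 added, and all 5 were higher in IL-33+LM8 than in PBS mice. Their median log2 fold change was -1.58, 2.13 and 0.45 in IL-33 versus PBS, IL-33+LM8 versus IL-33 and IL-33+LM8 versus PBS, beside 2.54, 0.36 and 2.92 for *Ackr1*, and the part of red cells in the *Ackr1* values was not tested.

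Alveolar type 1 cells, which face the aerocytes across the gas barrier, gave 1161 to 1263, 592 to 618 and 897 to 949 FPKM summed over 4 genes. All 4 fell with IL-33 and 3 were higher with LM8 added. Of 4 alveolar type 2 genes 3 fell and 2 were higher with LM8 added, and of 4 airway epithelial genes 3 fell and 3 were higher. Of 6 genes of pericytes and smooth muscle 3 fell and 1 rose with IL-33, and 3 were higher with LM8 added. Of 4 fibroblast genes 3 fell and 1 rose, and 2 were higher and 1 lower with LM8 added. The 4 mitosis genes rose with IL-33 (median log2 fold change 3.07) and were lower with LM8 added (-1.29). The part of a changed cell mixture in the values of the 10 genes was not tested.

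**Figure D5:**
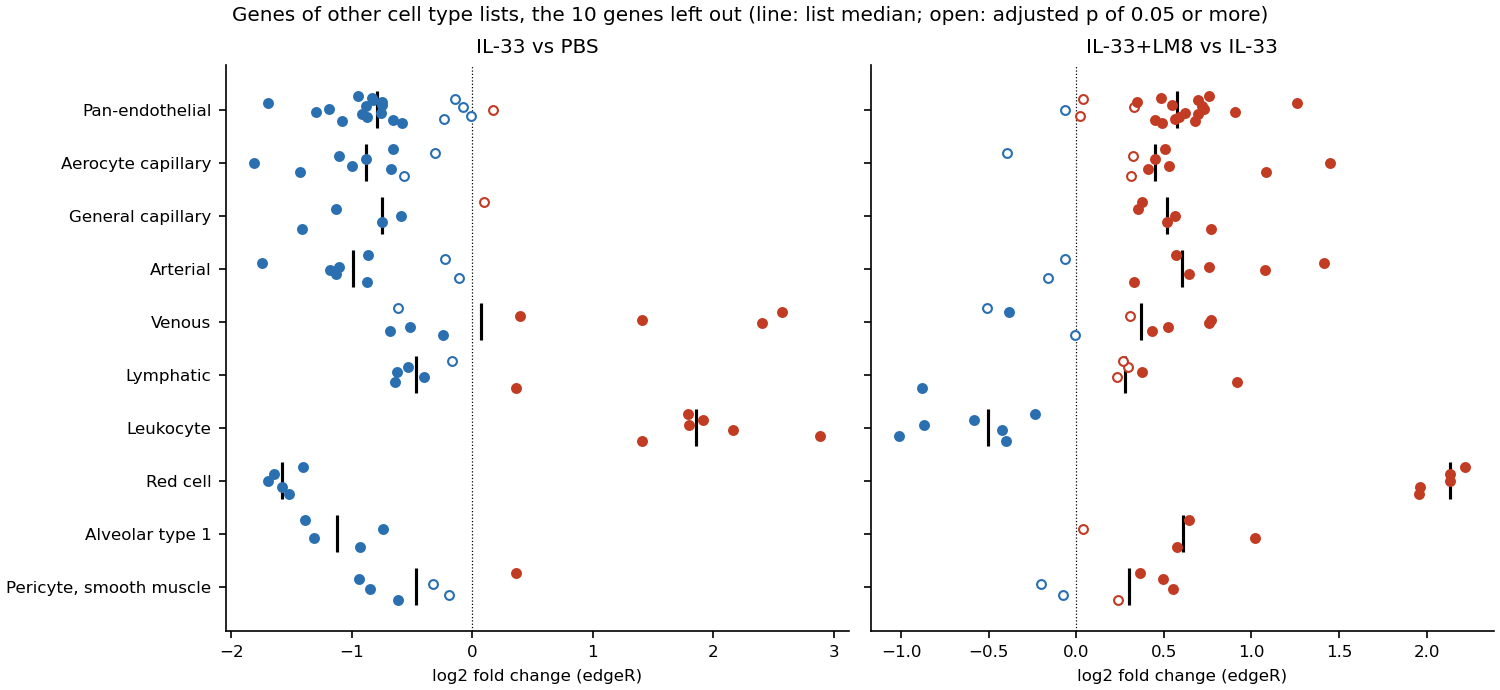
Log2 fold change from edgeR of each tested gene of 10 cell type lists, with the 10 genes left out, in IL-33 versus PBS (left) and IL-33+LM8 versus IL-33 (right). Vertical bars mark list medians and open points an adjusted p of 0.05 or more, and the medians of the pan-endothelial, aerocyte, general capillary, arterial, lymphatic, red cell and alveolar type 1 lists lie left of 0 on the left and right of 0 on the right.

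The genes whose pattern over the 9 lungs was most like that of each of the 10 were listed by Pearson's r of log2(FPKM + 1) over 16831 genes. The 9 points fall into 3 groups that differ in cell mixture, so these values describe the group pattern as much as the single mice. *Tek* was closest to *Cavin2* (r = 0.9994), *Kdr* to *Cdc42bpa* (0.9981), *Ednrb* to *Pard6g* (0.9972), *Aplnr* to *Phldb2* (0.9945) and *Gpihbp1* to *Galnt18* (0.9940), followed by the pan-endothelial *Esam* (0.9936) and *Egfl7* (0.9906). *Apln* was closest to *Thoc2l* and to *Aqp5* of alveolar type 1 cells (both 0.9911). *Car4* (0.9853 with *Tmem132d*), *Ackr1* (0.9827 with *Pgm3*), *Plvap* (0.9588 with *Nhlrc1*) and *Vwf* (0.9506 with *Tmed10-ps*) had weaker nearest neighbours. *Kdr* and *Tek* had an r of 0.985 with each other over the 9 lungs and of 0.436 within groups.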

How the data were processed

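Lung RNA of 9 mice was sequenced, 3 in each of 3 groups taken from the sample labels. Per the submitters' processing notes, Bowtie 0.12.2, HISAT2 2.0, StringTie 1.3.0 and the build mm10 were used, with no roles given. The authors deposited 1 table with the read count and the FPKM of each gene in each mouse. For all 10 genes its coordinates differ from those of RefSeq on GRCm38 at both ends, so they are given as deposited, and the promoter sequences carry their own build.

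Counts were tested with edgeR 4.0.16 (R 4.3.3, quasi-likelihood test, TMM normalization), fitting only the 6 mice of the comparison and keeping genes that averaged at least 0.5 FPKM over the 9 mice and had a read in the 6. This left 16831 genes, and 16829 in IL-33+LM8 versus PBS. Adjusted p-values are Benjamini-Hochberg over all genes tested, and fold changes are on the log2 scale of counts. Means and SDs are of FPKM. The study's methods name no test for these data. Standard errors were derived from the quasi-likelihood F. In an exact permutation test of 3 mice against 3, the smallest two-sided p is 0.1. The scripts were tested on simulated counts. Counts of mice in 1 group differed by 24.2 times the sampling variance or more, and each mouse was kept as a sample of its own. The labels do not say whether the mice shared a cage or a day, and p-values measure the spread between these mice.

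Total counts were between 61767006 and 73869252 in PBS mice, 53877663 and 66029783 in IL-33 mice and 59753648 and 90607218 in IL-33+LM8 mice, and the 10 genes took 0.216% to 0.248%, 0.157% to 0.172% and 0.214% to 0.236% of them. Replicate numbers pair no mice in the labels. The deviations of same-numbered mice from their group means correlated at -0.53, 0.38 and -0.45 for IL-33 and PBS. They correlated at -0.52, 0.31 and -0.55 for IL-33+LM8 and IL-33, and at 0.39, 0.43 and 0.73 for IL-33+LM8 and PBS. In the last comparison the 0.73 joins the mice with the most reads. Of the differently numbered mice there, PBS replicate 1 and IL-33+LM8 replicate 2 correlated at 0.32. PBS replicate 2 and IL-33+LM8 replicate 1 correlated at 0.31, and every other such pair lay between -0.54 and -0.48. Same-numbered mice were thus the most alike in IL-33+LM8 versus PBS, but not in either comparison with the IL-33 group. Whether the mice were paired by number was not settled. The printed fits have no block, and the block was an alternative in each comparison.

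The members and lists were chosen with earlier results of these data known. The genes named are the 10, genes of the 5 pathway lists (1 of which is not reported here), the most changed (up to 4 per comparison) and the most abundant gene of each other list, and the 3 genes most like each of the 10. *Pecam1*, *Ptprc*, *Vcam1* and *Nr2f2* fall outside this rule and were named after their values were seen. Alternatives were other size factors, scaling to pan-endothelial genes (DESeq2 1.42.0 size factors on those genes), other filters, DESeq2, limma 3.58.1 on log2(FPKM + 1) and log2(FPKM + 0.1), 1 fit over the 9 mice, the replicate number as a block, and leaving out the mice in turn. A fit without the deepest library of each group was added after seeing the data.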

Additional observations from a re-analysis of the deposited data

How the results depend on the processing

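The number of the 10 genes that passed was 9 in IL-33 versus PBS (7 to 9 with 1 mouse left out), 7 in IL-33+LM8 versus IL-33 (5 to 6) and 8 in IL-33+LM8 versus PBS (6 to 7). Over all genes 9193, 4459 and 4997 passed in these comparisons. With 1 mouse left out 7875 to 8549, 3042 to 4368 and 3165 to 4919 of all genes did. Scaling to the pan-endothelial genes gave 4 in the second comparison, 1 higher and 3 lower. On that scale 1.61% of all genes passed as higher and 70.6% as lower. A minimum of 2-fold left 0 there, where 1.46% of all genes met that rule as higher and 3.93% as lower. It left 2 in the third, 1 higher and 1 lower, against 5.87% and 1.46% of all genes. Leaving out the deepest library of each group, an alternative chosen after seeing the data, left 5 in the third, where 2622 of 16825 genes passed. It also removes 2 of the 6 mice there. With other size factors, filters, tests and the fit of all 9 mice the numbers stayed within 1.5 times of 9, 7 and 8.

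With the replicate block 9, 5 and 8 genes passed, where 8256 of 16831, 3393 of 16831 and 6421 of 16829 genes did. In IL-33+LM8 versus IL-33, *Aplnr* (adjusted p = 0.060, edgeR) and *Vwf* (adjusted p = 0.092) no longer passed under the block. In IL-33+LM8 versus PBS no call of the 10 genes changed. Same-numbered mice were the most alike in IL-33+LM8 versus PBS but not in IL-33+LM8 versus IL-33, and a pairing was not settled.

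Directions turned mostly under the pan-endothelial scaling, which by its construction sets the endothelial median to 0. With IL-33 versus PBS it gave 0.20 for both *Car4* and *Plvap*. With IL-33+LM8 versus IL-33 it gave -0.26 for *Car4*, -0.41 for *Apln*, -0.22 for *Aplnr*, -0.041 for *Plvap*, -0.26 for *Vwf* and -0.18 for *Ackr1*. With IL-33+LM8 versus PBS it gave 0.17 for *Plvap* and 0.057 for *Gpihbp1*. The other turns were of values near 0 or of wide spread. *Ackr1* in IL-33+LM8 versus IL-33 ranged from -0.21 without IL-33+LM8 replicate 2 to 0.76 without IL-33+LM8 replicate 1. *Plvap* in IL-33+LM8 versus PBS was 0.00064 with no filter on low values, 0.15 without PBS replicate 3, 0.057 without IL-33+LM8 replicate 1 and 0.068 without IL-33+LM8 replicate 2. The cause of these turns was not tested. Of all the recomputed fold changes of single genes, 412 kept direction and side of the threshold, 43 no longer passed, 7 newly passed and 15 turned.

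The depth of *Ackr1*, at 7 to 443 reads, limits what can be said of it, and with 3 mice a group only large or tight differences pass.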
